A study of Drosophila melanogaster with 33 samples.

Results

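The response of each gene to Atx2 RNAi was compared between adult fly brain and cultured S2 cells. For every gene the log2 fold change of Atx2 RNAi over its own control was estimated in each system, and the difference between the responses, brain minus S2, was then tested. The count tables listed 16727 genes, of which 9197 had enough counts in brain, 7567 in S2 cells and 7019 in both. The comparison covers all of these 7019 genes, whether or not they responded.

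The brain groups were 3 libraries of Ataxin-2 RNAi flies, in which elav-Gal4 drove a UAS-Atx2 RNAi transgene in neurons, and 3 libraries of Elav Gal4 control flies. Temperature-sensitive Gal80 (tub-Gal80ts) held the driver silent until adulthood. Each brain replicate pooled several dissected brains, which also contain glia and other cells that lack the driver. The S2 groups were 3 libraries labelled Ataxin-2 RNAi, from cells transfected with double-stranded RNA (dsRNA) against Atx2, and 3 mock libraries labelled GFP RNAi, from cells transfected with dsRNA of a GFP sequence. S2 cells are a line of embryonic origin with features of hemocytes, the blood cells of the fly. Brain and S2 cells differed in cell types, in how RNAi was delivered and in their sets of libraries, and these cannot be told apart.

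Ataxin-2 is an RNA-binding protein of ribonucleoprotein granules. It carries Lsm and LsmAD domains, a motif that binds poly(A)-binding protein and long disordered stretches, and it is known for roles in mRNA stability and translation, including the translation of the clock gene per in flies. In RNAi, dsRNA is cut into short interfering RNAs that guide Argonaute proteins to a matching mRNA. The comparison asks how many genes moved the same way in brain and in S2 cells, and which ones went opposite ways.

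Atx2 (FBgn0041188) lies on chromosome arm 3R of dm6, from 15408423 to 15417277 on the plus strand. The S2 dsRNA was made from a PCR product whose gene-specific primer ends are shown here because they define which mRNA was targeted in S2 cells. Capitals are not used, since no part of either primer was singled out, and the T7 promoter tails are left out.
Atx2 Forward: ccggtggttaagaagcatgt
Atx2 Reverse: gaattgttgctggtgtggtg

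Atx2 itself went opposite ways in brain and in S2 cells. In brain its level was 201, 252 and 264 normalized counts per 1000000 (CPM) in Atx2 RNAi libraries, against 287, 302 and 316 CPM in Gal4 controls. The brain libraries did not overlap, as for 56% of all genes, and the log2 fold change was -0.34 (standard error, SE, 0.126; n = 3 each), with an adjusted p of 0.061 that did not pass the threshold of 0.05. Scaling over all 12 libraries gave -0.44 with an adjusted p of 0.028, and DESeq2 gave -0.39 with an adjusted p of 0.014. In S2 cells its level was 1002, 686 and 841 CPM in the libraries labelled Atx2 RNAi, against 228, 227 and 232 CPM in mock libraries, again without overlap, as for 44.5% of all genes. The raw counts behind these were 12242, 8229 and 9532 in the labelled libraries and 2827, 2923 and 3700 in mock libraries. The S2 log2 fold change was therefore positive, 1.88 (SE 0.157, adjusted p = 0.0019), which goes against the label. The difference between the systems was -2.27 (SE 0.183, adjusted p = 2.3e-06). An exact two-sided permutation test of 3 against 3 libraries gave p = 0.1 in each system, the smallest it can give with 20 splits. Reads from transfected dsRNA and from Atx2 mRNA are not separated in the counts, and their part in this result was not tested. An exchange of the S2 labels was not tested either. With exchanged labels every S2 direction given here would turn round, and genes that agreed would oppose and the reverse. The S2 libraries are therefore called "labelled Atx2 RNAi" throughout, and every direction drawn from them carries this limit. Adjusted p-values are from edgeR's quasi-likelihood test with Benjamini-Hochberg adjustment over all genes fitted, and a gene is called at an adjusted p under 0.05.

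The white gene w, the eye colour marker carried by many fly transgenes, checked the brain genotypes. It had 644, 402 and 533 CPM in Atx2 RNAi brains, against 77.5, 74.8 and 73.5 CPM in control brains (log2 fold change 2.81, adjusted p = 7.1e-05). In S2 cells w had between 1 and 3 counts in every library and was not tested there.

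Libraries held 11169973 to 16108727 gene counts. Replicates were much closer to each other in S2 cells than in brain, with a biological coefficient of variation of 0.0345 in S2 cells and 0.148 in brain, so smaller changes passed the test in S2 cells. The labels do not say whether the S2 replicates were separate cultures, and the p-values measure only the spread between these samples, which may be technical. Control brain replicate 1 stood apart, with 22% of reads in no annotated gene against 12.2% to 14.4% in the other brain libraries. Summed neuron markers were 14300 to 16500 CPM in Atx2 RNAi brains and 22900 to 27100 CPM in control brains, and summed glial markers were 5460 to 6480 and 8420 to 9740 CPM. Summed fat body markers were 12200 to 24800 CPM in Atx2 RNAi brains and 1350 to 2480 CPM in control brains. Summed muscle markers were 153 to 198 CPM in Atx2 RNAi brains and 543 to 673 CPM in control brains. Summed photoreceptor markers were 1370 to 1860 CPM in Atx2 RNAi brains and 1070 to 1120 CPM in control brains. The part of these markers in the brain responses was not tested. In bulk samples, fewer cells of a type and less RNA per cell cannot be told apart. S2 cells had 84.0 to 87.6 CPM of neuron markers in labelled libraries and 84.2 to 86.9 CPM in mock libraries, with VAChT at 0 in all 6, and 2090 to 2200 and 2010 to 2030 CPM of hemocyte markers.

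Among the 7019 genes, 1668 were higher (23.8%) and 1030 lower (14.7%) in Atx2 RNAi brains than in control brains, and 1029 were higher (14.7%) and 1063 lower (15.1%) in labelled Atx2 RNAi S2 libraries than in mock libraries. Over all genes tested in each system alone, 41.9% of 9197 were called in brain and 29% of 7567 in S2 cells. The size of the responses was unequal, with the central 90% of genes, from the 5th to the 95th percentile, between -0.67 and 1.26 in brain and between -0.24 and 0.33 in S2 cells on the log2 scale. Without Atx2 RNAi brain replicate 1 the brain counts were 1020 higher and 672 lower, and without replicate 3 they were 1098 and 668.

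Of the 844 genes called in both systems, 609 agreed in direction, which was 72.2%, and 235 opposed. There were 390 genes higher in both systems (5.56% of those tested), 219 lower in both (3.12%), 163 higher in brain and lower in S2 cells (2.32%), and 72 lower in brain and higher in S2 cells (1.03%). The 4 counts depended on single libraries to unequal degrees. The genes lower in both numbered 133 without Atx2 RNAi brain replicate 1, 141 without replicate 3, 143 without control brain replicate 3 and 141 without mock replicate 3. The genes higher in brain and lower in S2 cells numbered 108 without Atx2 RNAi brain replicate 2. The genes lower in brain and higher in S2 cells numbered 41 without mock replicate 3, 46 without mock replicate 2 or labelled S2 replicate 1, and 47 without Atx2 RNAi brain replicate 1. Without the control brain library that stood apart, the 4 counts were 390, 212, 161 and 100.

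Agreement was partial when each system was read against the background of the other. Of genes higher in brain, 23.4% were also higher in S2 cells, against 14.7% of all genes, and 9.77% were lower. Of genes lower in brain, 21.3% were also lower in S2 cells, against 15.1% of all genes, and 6.99% were higher. Across genes, which are not independent replicates, the log2 fold changes correlated weakly (Pearson r = 0.135, Spearman rho = 0.194, n = 7019), and 57.7% of genes had the same sign. The plot of brain response against S2 response shows this as a broad cloud with little tilt.

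**Figure D1:**
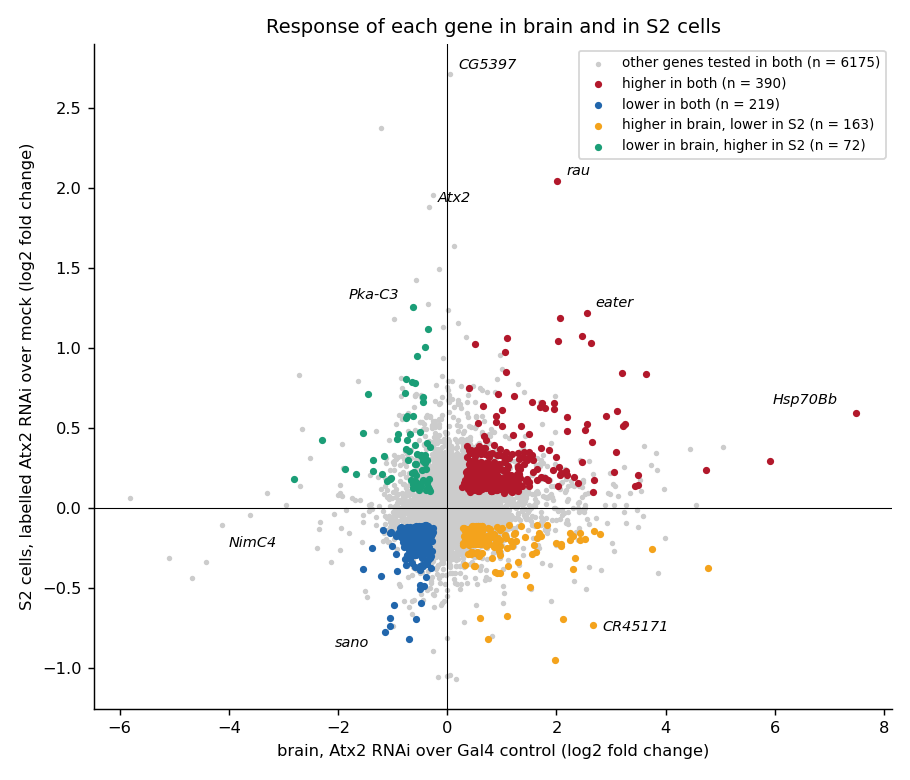
Log2 fold change of Atx2 RNAi over Gal4 control in brain (x axis) and of libraries labelled Atx2 RNAi over mock in S2 cells (y axis), 1 point per gene for 7019 genes. Coloured points are the 844 genes called in both systems. The 390 genes higher in both and the 219 lower in both outnumber the 163 and 72 that oppose, and Atx2 lies on the opposing side.

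The difference itself was called for 2645 genes (37.7%). The response in brain was the more positive for 1479 genes (21.1%) and the more negative for 1166 (16.6%). All 235 opposing genes were called in this test. They were picked as called in each system with opposite signs in these same libraries, so this outcome was nearly fixed in advance. Difference calls of single opposing genes, given below, carry the same limit. Agreement in direction often went with a larger change in brain, since 238 of the 390 genes higher in both also differed in the direction of a larger rise in brain, and 111 of the 219 genes lower in both differed in the direction of a larger fall. A further 1115 genes were higher in brain and not called in S2 cells, of which 882 were called in the difference, and 739 were lower in brain and not called in S2 cells, of which 646 were. The split of the difference depended on the scaling of libraries and on the fitting method. It was 1479 to 1166 with TMM factors, 1270 to 1565 with DESeq2 and 2608 to 460 with library size alone, which moved the median difference of all genes to 0.284, against 0.038 with TMM factors.

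Genes higher in both systems were led by a small set with low levels in at least 1 system. The gene rau (FBgn0031745, 2L), an adaptor of receptor tyrosine kinase and Ras signalling, had 6.54, 5.16 and 7.69 CPM in Atx2 RNAi brains, against 1.30, 1.64 and 1.80 CPM in control brains. In S2 cells rau had 1.64, 1.17 and 2.12 CPM in labelled libraries, against 0.322, 0.465 and 0.376 CPM in mock libraries. No libraries overlapped in either system, as was the case for 24.9% of all genes, and the changes were 2.02 (SE 0.252, adjusted p = 0.00085) in brain and 2.05 (SE 0.361, adjusted p = 0.00044) in S2 cells, with a difference of -0.09 (SE 0.359, adjusted p = 0.86).

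The gene eater (FBgn0243514, 3R) encodes a phagocytic receptor of hemocytes. It had 11, 10.7 and 8.03 CPM in Atx2 RNAi brains, against 1.69, 1.79 and 1.56 CPM in control brains. In S2 cells eater had 30.2, 24.7 and 27.5 CPM in labelled libraries, against 11.4, 10.0 and 13.6 CPM in mock libraries. It rose in both (2.55, SE 0.211, adjusted p = 0.00019 in brain; 1.22, SE 0.101, adjusted p = 2.2e-07 in S2 cells), and more in brain (difference 1.27, SE 0.243, adjusted p = 0.0015). CG14636, which has an antisense partner in beta-Man, had 3.65, 3.97 and 4.82 CPM in Atx2 RNAi brains, against 0.598, 0.895 and 1.41 CPM in controls, and 4.26, 3.50 and 2.65 CPM in labelled S2 libraries, against 1.45, 1.71 and 1.44 CPM in mock libraries. Its log2 fold changes were 2.07 in brain and 1.19 in S2 cells.

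The next members by rank were CG34010, APC7 (a subunit of the anaphase-promoting complex), Kaz1-ORFB (a Kazal-type protease inhibitor, which shares reads with Kaz1-ORFA), lectin-28C (a sugar-binding lectin) and msta. Their log2 fold changes were 1.05 to 2.64 in brain and 0.98 to 1.08 in S2 cells. In S2 cells all but lectin-28C had between 0.242 and 1.96 CPM, and their S2 calls were lost in 3 or 4 of the 6 fits that left out 1 S2 library, always including the fit without labelled replicate 3, with adjusted p up to 0.18. The brain calls of APC7 and msta were lost in 5 and 4 of 6 such fits.

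Genes lower in both systems were longer than those higher in both. The gene wake (wide awake, FBgn0266418, 3R), a clock output gene that promotes sleep, had 122, 155 and 152 CPM in Atx2 RNAi brains, against 228, 194 and 218 CPM in control brains. In S2 cells wake had 24.6, 26.3 and 22.2 CPM in labelled libraries, against 38.2, 39.1 and 41.1 CPM in mock libraries. The libraries did not overlap in either system, and wake fell by 0.58 (SE 0.125, adjusted p = 0.008) in brain and by 0.69 (SE 0.068, adjusted p = 1.5e-06) in S2 cells on the log2 scale. The gene sano (serrano, FBgn0034408, 2R), which takes part in planar cell polarity, had 38.7, 46.1 and 51.8 CPM in Atx2 RNAi brains, against 68.1, 130 and 101 CPM in control brains. In S2 cells sano had 8.02, 8.08 and 5.74 CPM in labelled libraries, against 10.6, 12.9 and 13.8 CPM in mock libraries. It fell by 1.13 in brain (adjusted p = 0.008) and by 0.78 in S2 cells (adjusted p = 0.00034).

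CG14516, with an antisense partner in CG14511, had 8.65, 9.91 and 9.90 CPM in Atx2 RNAi brains, against 15.9, 13.7 and 16.5 CPM in control brains, and 21.1, 25.7 and 16.6 CPM in labelled S2 libraries, against 34.2, 36.7 and 40.3 CPM in mock libraries. Its changes were -0.70 in brain and -0.81 in S2 cells. The remaining 5 of the leading 8 were tutl (turtle, an immunoglobulin-type neuronal adhesion protein), CG15382, CG13822, pgant2 (an enzyme of O-glycosylation) and CG43693. Their changes were -1.05 to -0.48 in brain and -0.74 to -0.50 in S2 cells, where none had more than 8.06 CPM in any library. The S2 calls of tutl, CG15382, CG13822 and pgant2 were lost in 2 to 4 of 6 fits without 1 S2 library, always including the fit without labelled replicate 3, and the brain call of CG43693 was lost without Atx2 RNAi brain replicate 2 or 3.

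Genes higher in brain and lower in S2 cells included a pair of neighbours on the X chromosome. CR45479, a noncoding RNA from 2173480 to 2175855 that is antisense to Cyp4d14, had 41.5, 37.9 and 54.8 CPM in Atx2 RNAi brains, against 19.7, 8.43 and 6.64 CPM in control brains. In S2 cells CR45479 had 1.64, 2.5 and 1.68 CPM in labelled libraries, against 2.98, 3.87 and 4.26 CPM in mock libraries. Cyp4d2, a cytochrome P450 gene from 2176006 to 2178728, had 77.3, 51.5 and 68.8 CPM in Atx2 RNAi brains, against 25.0, 11.6 and 9.30 CPM in control brains. In S2 cells Cyp4d2 had 3.03, 2.67 and 3.09 CPM in labelled libraries, against 4.99, 4.03 and 5.07 CPM in mock libraries. No libraries overlapped for either gene, and the differences were 2.87 (SE 0.577, adjusted p = 0.0026) for CR45479 and 2.76 (SE 0.505, adjusted p = 0.0015) for Cyp4d2.

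CG3835 (D-2-hydroxyglutarate dehydrogenase by its current name, D2hgdh) opposed without overlap in either system. It had 83.1, 78.3 and 88.2 CPM in Atx2 RNAi brains, against 26.7, 33.1 and 27.7 CPM in control brains. In S2 cells CG3835 had 10.7, 12.4 and 13 CPM in labelled libraries, against 16.7, 17.1 and 17.0 CPM in mock libraries. It rose by 1.51 in brain (adjusted p = 0.00014) and fell by 0.49 in S2 cells (adjusted p = 0.00068), a difference of 1.95 (SE 0.135, adjusted p = 9.6e-07). CG8468 rose by 1.44 in brain and fell by 0.42 in S2 cells, from a level of 45.4 to 47.8 CPM in labelled and 58.9 to 65.3 CPM in mock S2 libraries. For the other members by rank, CG5987, CR45171 (antisense to Cpr67Fb), ste24b and CG16947, the brain changes were 0.60 to 2.68 and the S2 changes -0.81 to -0.67. The difference was called in all 12 fits without 1 library for each of these 4, but the S2 call was lost without mock replicate 3 for each of them, and the brain calls of CG5987 and ste24b were lost in 5 and 4 of 6 fits.

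Genes lower in brain and higher in S2 cells had higher levels in brain than in S2 cells. Their medians were 132 CPM in control brains and 26.9 CPM in mock S2 libraries, against 28.3 and 55.2 CPM for all genes. Genes lower in brain and not called in S2 cells also had higher levels in brain, with medians of 170 and 74.6 CPM. Pka-C3 (FBgn0000489, 3L), a catalytic subunit of cAMP-dependent protein kinase, had 103, 79.3 and 93.4 CPM in Atx2 RNAi brains, against 135, 160 and 129 CPM in control brains. In S2 cells Pka-C3 had 1.72, 1.33 and 1.32 CPM in labelled libraries, against 0.322, 0.697 and 0.752 CPM in mock libraries. The groups did not overlap, and the changes were -0.62 in brain (adjusted p = 0.0073) and 1.26 in S2 cells (adjusted p = 0.0081). CG10089 had 88.9, 88.6 and 87.3 CPM in Atx2 RNAi brains, against 151, 153 and 146 CPM in control brains, and 5.81, 4.58 and 4.94 CPM in labelled S2 libraries, against 2.82, 3.64 and 2.88 CPM in mock libraries. Its difference was -1.54 (SE 0.147, adjusted p = 9.4e-06). CG8745 had a change of -0.59 in brain and 0.78 in S2 cells, a difference of -1.43 (adjusted p = 5.2e-05).

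The other 5 were Con (connectin, a cell adhesion protein of motor neurons and muscle), Nos (nitric oxide synthase), ed (echinoid, an adhesion protein), nAChRalpha4 (a nicotinic acetylcholine receptor subunit) and the noncoding RNA CR43951. Nos had 94.2, 110 and 106 CPM in Atx2 RNAi brains, against 139, 168 and 176 CPM in control brains, and 2.70, 2.08 and 2.12 CPM in labelled S2 libraries, against 1.13, 1.32 and 1.5 CPM in mock libraries. For all 5 genes the difference was called in every fit without 1 library and lay between -2.21 and -1.26. Their S2 changes of 0.58 to 0.81 rested on 0.93 to 6.83 CPM, and those calls were lost in 2 of 6 fits for Nos (without mock replicate 1 or labelled replicate 1) and for ed (without mock replicate 1 or labelled replicate 2), in 3 for Con, in 5 for nAChRalpha4 and in all 6 for CR43951. The brain call was lost in 4 of 6 fits for CR43951 and without Atx2 RNAi replicate 1 for nAChRalpha4.

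**Figure D2:**
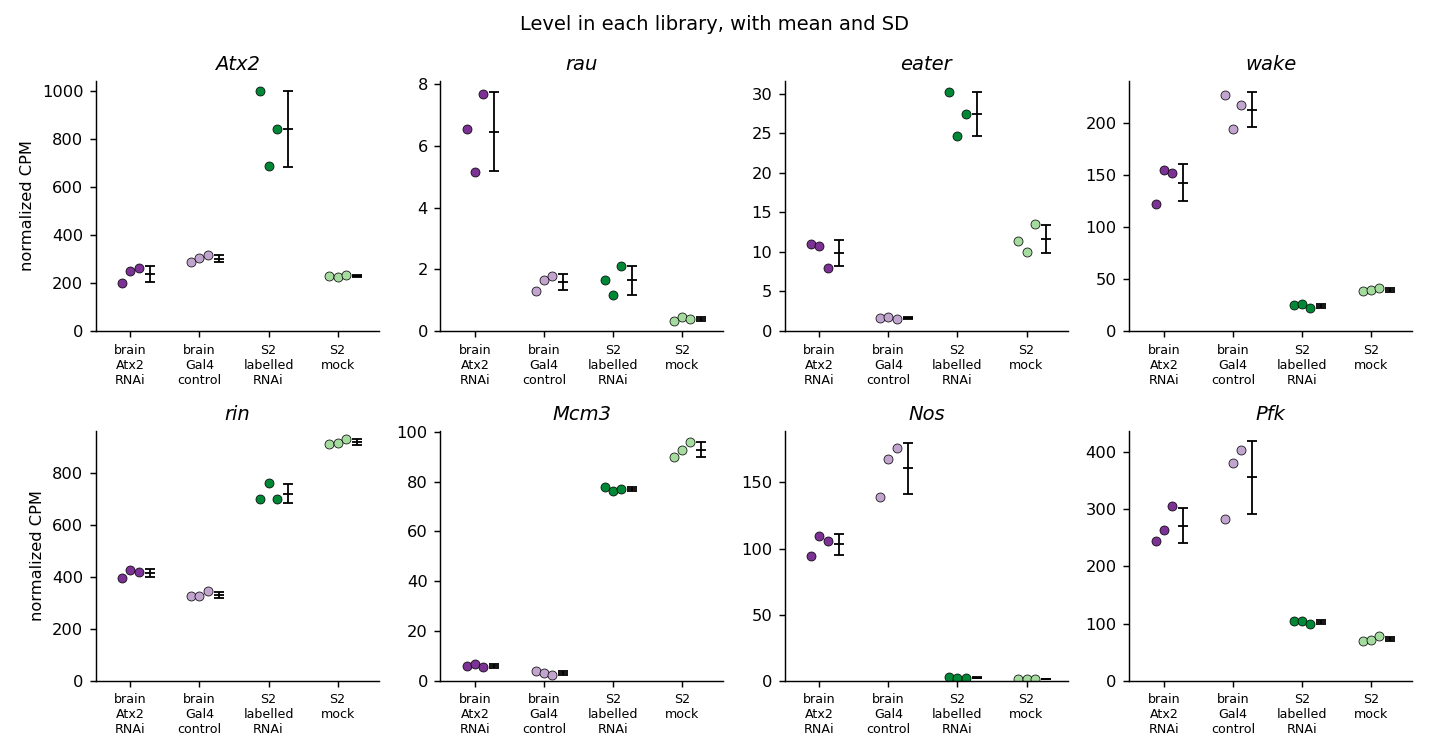
Normalized CPM of 8 genes in each of the 12 libraries, with the mean and SD of each group of 3 beside the points (linear axes from 0). Atx2 is lower in Atx2 RNAi brains and higher in labelled Atx2 RNAi S2 libraries than in their controls. The genes rau and eater are higher in both systems, wake is lower in both, rin and Mcm3 are higher in brain and lower in S2 cells, Nos is lower in brain and higher in S2 cells, and Pfk is called higher in S2 cells and not called in brain, with 245 to 306 CPM in Atx2 RNAi brains and 283 to 404 CPM in control brains.

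The largest differences, among genes with at least 10 CPM in a group of each system, came mostly from brain. CG33926 had 53.4, 33.8 and 73.0 CPM in Atx2 RNAi brains, against 0.598, 0.672 and 1.33 CPM in control brains, and 362, 328 and 352 CPM in labelled S2 libraries, against 285, 290 and 274 CPM in mock libraries. It rose in both, by 5.91 in brain and by 0.30 in S2 cells, a difference of 5.55 (SE 0.397, adjusted p = 1.2e-06). Tequila (a secreted serine protease), CG33307, smp-30, Cyp4e2 (a cytochrome P450) and dob (a lipase of the brummer type) had differences of 3.46 to 5.11. Tequila had 340, 385 and 451 CPM in Atx2 RNAi brains, against 19.7, 10.2 and 13.2 CPM in control brains, while its S2 level was 7.06 to 10.4 CPM in labelled libraries and 10.1 to 13.3 CPM in mock libraries. The S2 calls of Tequila and smp-30 were each lost in 4 of 6 fits. The summed fat body markers moved with these genes in brain, as given above, and their part in these results was not tested.

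At the other end, NimC4, a Nimrod-type receptor for engulfing dead cells, had 0.641, 0.463 and 0.669 CPM in Atx2 RNAi brains, against 6.17, 13 and 12.2 CPM in control brains. In S2 cells NimC4 had 114, 107 and 119 CPM in labelled libraries, against 121, 129 and 116 CPM in mock libraries, which overlapped. Its difference was -4.10 (SE 0.334, adjusted p = 2.5e-06). Ama (amalgam, a secreted immunoglobulin-domain protein) had 1.60, 0.925 and 1.94 CPM in Atx2 RNAi brains, against 10.3, 18.6 and 5.70 CPM in control brains, with 266 to 287 CPM in labelled and 263 to 278 CPM in mock S2 libraries. CG5397 was the reverse case, with a difference of -2.73 that came from S2 cells, where it had 11.5, 9.50 and 12 CPM in labelled libraries, against 1.69, 1.71 and 1.63 CPM in mock libraries. Its brain libraries overlapped, with 19.7, 19.1 and 18.3 CPM in Atx2 RNAi brains and 7.57, 29.8 and 17.6 CPM in control brains. CG44085 and CG34398 had differences of -2.5 and -2.12, and the brain call of CG34398 was lost without any 1 of the Atx2 RNAi brain libraries.

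The genes that agreed differed in transcript length from those that did not. Exon length, taken as the summed length of all annotated exons of a gene, was known for 6936 genes. Its median was 1202 nucleotides (nt) for genes higher in both systems, 5454 nt for genes lower in both, 2529 nt for genes higher in brain and lower in S2 cells, 3310 nt for genes lower in brain and higher in S2 cells, and 2198 nt for all. Annotated 3′UTRs followed the same order, with medians of 126, 1280, 299 and 758 nt, and 325 nt for all genes. Genes that agreed upward also had lower levels in control brains than in mock S2 cells, with a median log2 ratio of -2.09, against 0.233 for genes lower in both and -0.815 for all. This was not particular to genes that agreed. The ratio was -2.7 for genes higher in brain and lower in S2 cells. It was -1.752 for genes higher in brain and not called in S2 cells.

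Both responses followed exon length, and they were almost uncorrelated among genes of like length. Spearman's rho with exon length was -0.443 for the brain response, -0.437 for the S2 response and -0.302 for the difference (n = 6936). With genes ordered by exon length into 4 groups of nearly equal size, bounded at 1364, 2198 and 3698 nt, the median brain response was 0.338, 0.242, 0.075 and -0.263, and the median S2 response was 0.117, 0.020, -0.038 and -0.077, from the shortest to the longest group. Of the genes higher in both, 232, 88, 50 and 13 fell into these groups, and of the genes lower in both, 3, 6, 40 and 168. Within each group Spearman's rho between the brain and S2 responses was 0.034, 0.0104, 0.0198 and 0.00114.

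The shares of called genes were read in the same way. Of the shortest genes that were higher in brain, 38.4% were also higher in S2 cells, against 31.8% of all the shortest genes. Of the longest genes that were lower in brain, 27.4% were also lower in S2 cells, against 30% of all the longest genes. In the shortest group the share of all CPM was 17.1%, 13.9% and 14.7% in Atx2 RNAi brains, against 9.44%, 10.0% and 8.32% in control brains, and 23.9%, 23.4% and 25.2% in labelled S2 libraries, against 21.9%, 22.1% and 21.9% in mock libraries. In the longest group it was 45.8%, 52.3% and 50.2% in Atx2 RNAi brains, against 58.9%, 56.3% and 60.0% in control brains, and 31.8%, 32.3% and 29.7% in labelled S2 libraries, against 33.4%, 33.1% and 33.4% in mock libraries. None of these groups of libraries overlapped. Without the control brain library that stood apart, the brain medians were 0.319, 0.174, 0.043 and -0.246. What sets the relation with length was not tested. The split by length was chosen after the data were seen.

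**Figure D3:**
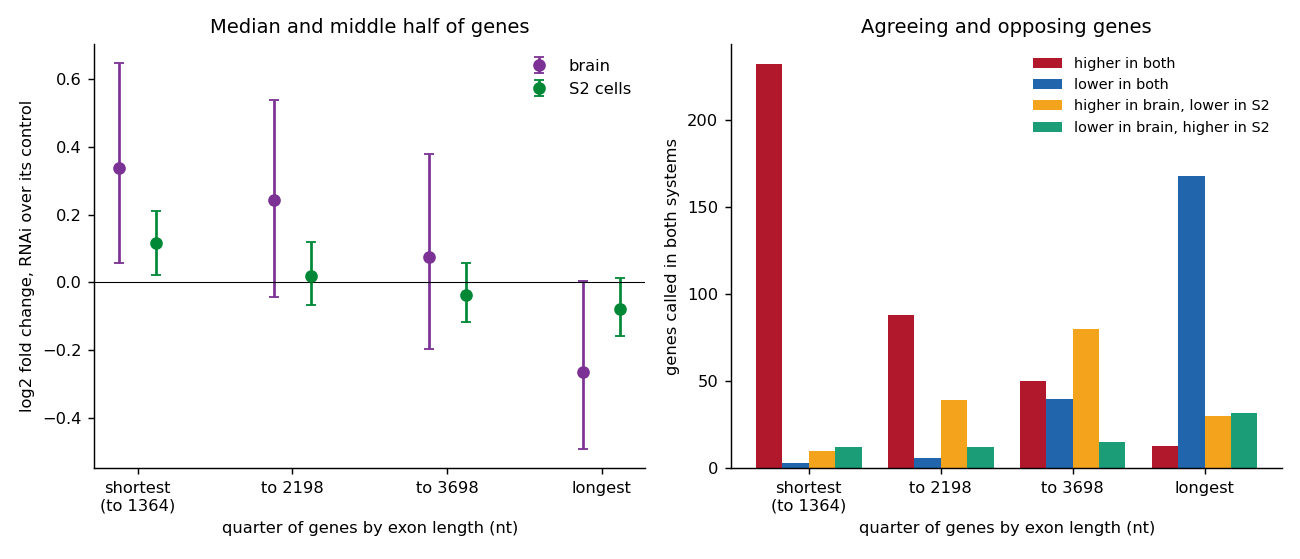
Left, median log2 fold change over control (points) and the span from the 25th to the 75th percentile (bars) in brain and in S2 cells for genes grouped by exon length in nt. Right, number of genes called in both systems by class in each length group. The medians fall with length in both systems, and 232 of the genes higher in both lie in the shortest group and 168 of the genes lower in both in the longest.

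Ribosomal protein genes were higher in both systems. The counts of this list and of those below stand beside the shares of all genes. These were 23.8% higher and 14.7% lower in brain, 14.7% higher and 15.1% lower in S2 cells, and 21.1% upward and 16.6% downward in the difference. Of 84 cytoplasmic ribosomal protein genes tested, 77 were higher in brain, 67 in S2 cells and 63 in both, with none lower in either, and 67 were called in the difference with the larger rise in brain. The median change was 0.93 in brain and 0.15 in S2 cells, against 0.105 and 0.003 for all genes. The mean log2 level of the list was 9.01, 8.74 and 8.88 in Atx2 RNAi brains, against 8.10, 8.04 and 7.68 in control brains, and 10.59, 10.56 and 10.68 in labelled S2 libraries, against 10.45, 10.48 and 10.48 in mock libraries, without overlap in either system. The S2 count was 41 without mock replicate 1. The median exon length of the list was 916 nt, so it belongs to the shortest group of genes, whose median changes were 0.338 and 0.117.

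The gene sta (stubarista), which encodes a protein of the small ribosomal subunit, had 1396, 1196 and 1210 CPM in Atx2 RNAi brains, against 308, 303 and 237 CPM in control brains. In S2 cells sta had 2364, 2321 and 2662 CPM in labelled libraries, against 2065, 2085 and 2093 CPM in mock libraries. It rose by 2.17 in brain and by 0.24 in S2 cells, a difference of 1.87 (SE 0.155, adjusted p = 2.8e-06). RpS12 had 519, 416 and 464 CPM in Atx2 RNAi brains, against 223, 188 and 147 CPM in control brains, and 1083, 1112 and 1240 CPM in labelled S2 libraries, against 937, 974 and 987 CPM in mock libraries. RpL34a rose by 0.70 in brain and by 0.26 in S2 cells, with a difference of 0.38 that was not called (adjusted p = 0.07).

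Elongation factors followed the ribosomal proteins in brain. Of 9 elongation and release factor genes, 6 were higher in brain and 4 in S2 cells, and those 4 were higher in both. Ef1alpha48D, which brings aminoacyl-tRNA to the ribosome, had 1984, 1821 and 2299 CPM in Atx2 RNAi brains, against 951, 826 and 759 CPM in control brains. Its S2 levels were 10790, 10690 and 11400 CPM in labelled libraries and 10010, 10190 and 10120 CPM in mock libraries, a change of 0.12. The S2 call of Ef1alpha48D was lost without any 1 of the mock libraries, that of Ef1gamma without mock replicate 1 or 2, and the S2 count of the list was 0 without mock replicate 1 and 1 without mock replicate 2 or 3. Ef1gamma changed by 1.25 in brain and by 0.12 in S2 cells. Of 37 initiation factor genes, 16 were higher and 3 lower in brain and 9 were higher and 3 lower in S2 cells, with 4 higher in both and 1 opposing. The upward count in the difference was 11, and 20 with library size alone, and the downward count was 4, and 1 with library size alone. The brain count was 10 with TMM over all 12 libraries, 8 without control brain replicate 3 or Atx2 RNAi replicate 3 and 9 without Atx2 RNAi replicate 1, and the S2 count was 5 without mock replicate 1, 4 without mock replicate 3 and 14 without labelled replicate 2.

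Mitochondrial ribosomal protein genes were higher in both systems less often. Of 74, 28 were higher in brain, 35 were higher and 2 lower in S2 cells, and 12 were higher in both, with medians of 0.33 and 0.16. The median exon length of the list was 786.5 nt, and the shortest group of genes had medians of 0.338 and 0.117. The brain count was 5 without Atx2 RNAi replicate 1, 18 without replicate 2, 9 without replicate 3 and 9 without control replicate 3, and the S2 count was 21 without mock replicate 1, 21 without mock replicate 3 and 23 without labelled replicate 1. By setting, the brain count was 14 with TMM over all 12 libraries, 44 with library size alone and 17 with DESeq2. In the difference 6 were called upward and 2 downward. The upward count was 31 with library size alone, 15 with upper-quartile factors, 14 with the filter at 10 CPM, 3 with DESeq2 and 2 with limma voom. How far the systems differ for this list thus depended on the scaling, the filter and the fitting method. Leaving out 1 library gave 2 to 11 upward. The S2 count was 19 with DESeq2. For mRpL14 the brain values were 27.6, 22.5 and 26.5 CPM in Atx2 RNAi libraries, against 16.5, 14.9 and 15.2 CPM in controls, and the S2 values were 71.0, 71.6 and 75.2 CPM in labelled libraries, against 59.8, 66.3 and 57.4 CPM in mock libraries.

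Proteasome subunit genes were also often called higher, with changes close to those of other short genes. Of 32, 15 were higher in brain, 16 in S2 cells and 11 in both, with none lower, where 23.8% and 14.7% of all genes were higher in brain and in S2 cells. The medians were 0.31 in brain and 0.10 in S2 cells, and the median exon length was 1304 nt. The shortest group of genes had medians of 0.338 and 0.117. The brain count was 8 without Atx2 RNAi replicate 1 or 3. In the difference 6 were called upward, and 13 with library size alone. Prosalpha3, a subunit of the core particle, had 41.5, 37.4 and 38 CPM in Atx2 RNAi brains, against 18.8, 25.2 and 27.6 CPM in control brains, and 204, 189 and 219 CPM in labelled S2 libraries, against 165, 173 and 165 CPM in mock libraries. Prosalpha4 differed between the systems, with a change of 0.65 in brain and 0.03 in S2 cells (difference 0.57, adjusted p = 0.006).

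Nuclear genes of oxidative phosphorylation set the systems apart, although they are as short as the ribosomal protein genes (median exon length 853 nt). Of 66, 45 were higher and none lower in S2 cells, while in brain 1 was higher and 2 were lower, and 30 were called in the difference with the lower response in brain. The medians were -0.07 in brain and 0.18 in S2 cells. The count of 30 was 17 without mock replicate 1 and 19 without labelled replicate 3, and it was 0 with library size alone, 13 with upper-quartile factors, 14 with no filter on low counts and 19 by subtraction of the single-system fits. With library size alone the brain median was 0.141 while that of all genes was 0.313, so the list stayed below other genes in brain under each scaling.

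ATPsyn-d, a subunit of ATP synthase, had 204, 170 and 182 CPM in Atx2 RNAi brains, against 209, 221 and 207 CPM in control brains. In S2 cells ATPsyn-d had 207, 208 and 231 CPM in labelled libraries, against 178, 184 and 179 CPM in mock libraries. Its brain change of -0.20 was not called and its S2 change was 0.26, a difference of -0.51 (SE 0.108, adjusted p = 0.0028), which library size alone took to -0.26 (adjusted p = 0.11). ND42, a subunit of complex I, had a difference of -0.62, and blw (bellwether), the alpha subunit of ATP synthase, one of -0.53, and both calls were likewise lost with library size alone, at adjusted p of 0.083 and 0.11. The blw brain change of -0.42 was called, and that call was lost in 5 of 6 fits without 1 brain library. CG10320, a complex I subunit, was the only member called higher in both (0.37 in brain and 0.39 in S2 cells), and its brain call was lost in all 6 fits.

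**Figure D4:**
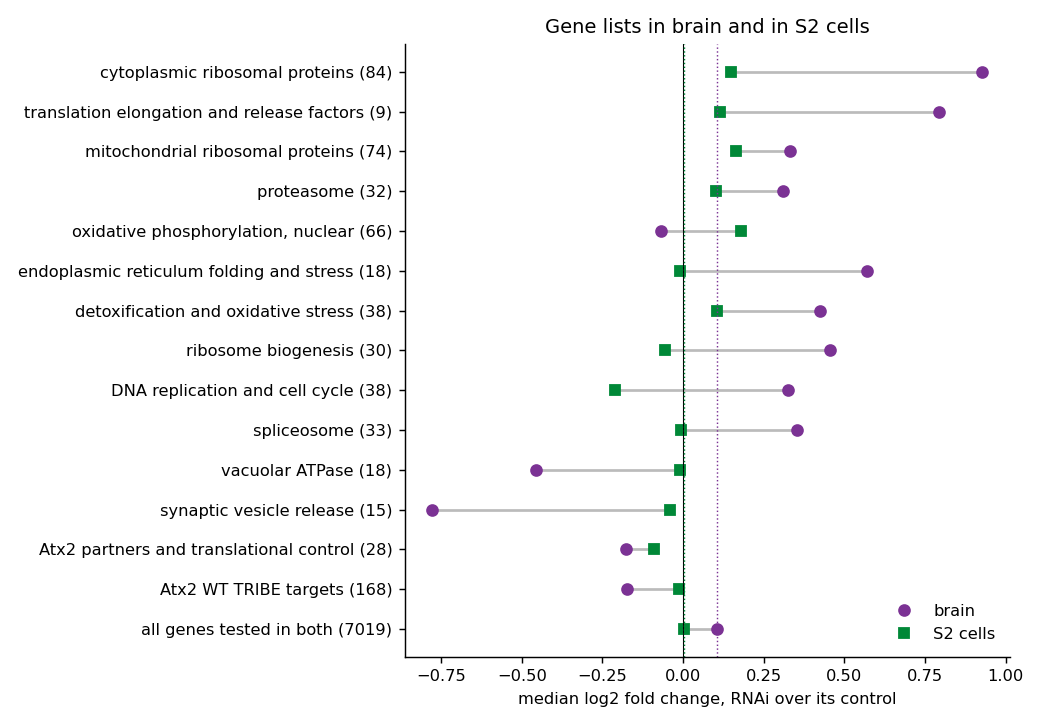
Median log2 fold change over control of each gene list in brain (circles) and in S2 cells (squares), with the number of genes tested in both systems in brackets. Dotted lines mark the medians of all 7019 genes, 0.105 in brain and 0.003 in S2 cells. Ribosomal proteins lie to the right in both systems, oxidative phosphorylation genes lie to the right in S2 cells only, DNA replication genes lie on opposite sides, and vacuolar ATPase and synaptic genes lie to the left in brain.

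Genes of DNA replication were mostly lower in S2 cells and seldom called in brain. Of 38 DNA replication and cell cycle genes, 31 were lower and none higher in labelled S2 libraries, while 5 were higher and 2 lower in brain. Of all genes, 15.1% were lower in S2 cells, and 23.8% were higher and 14.7% lower in brain. Both brain counts of this list were thus below the share of all genes. The medians were 0.32 in brain and -0.21 in S2 cells, and 18 were called in the difference upward and 3 downward. The brain count of 5 was 13 with library size alone, 8 with upper-quartile factors, 3 with TMM over all 12 libraries or DESeq2, 8 without control replicate 1, 3 without control replicate 2 or 3, 1 without Atx2 RNAi replicate 1 or 2 and 3 without replicate 3. Limma voom and the subtraction of the single-system fits each gave 9 upward differences, and the filter at 10 CPM, which removed lowly expressed genes in brain, gave 4. Top2, the DNA topoisomerase that untangles chromosomes, had 109, 128 and 117 CPM in Atx2 RNAi brains, against 67.8, 77.5 and 85.0 CPM in control brains. In S2 cells Top2 had 429, 424 and 400 CPM in labelled libraries, against 480, 482 and 484 CPM in mock libraries. It rose by 0.62 in brain and fell by 0.21 in S2 cells, a difference of 0.77 (SE 0.125, adjusted p = 0.00052) that was called in all 12 fits without 1 library.

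Mcm3, a subunit of the replicative helicase, had 5.96, 6.74 and 5.28 CPM in Atx2 RNAi brains, against 3.88, 3.21 and 2.27 CPM in control brains, and 78.0, 76.3 and 77.0 CPM in labelled S2 libraries, against 89.7, 92.8 and 95.7 CPM in mock libraries. Its difference was 1.17 (adjusted p = 0.00037), and its brain call was lost without Atx2 RNAi replicate 1 or 2. The gene geminin, an inhibitor of replication licensing, had a difference of 0.85, and its brain call was lost without any 1 of the Atx2 RNAi libraries. In contrast cdc2c, which encodes the kinase Cdk2, was lower in both (-0.71 in brain and -0.30 in S2 cells), with a difference of -0.47 whose call was lost in 9 of 12 fits.

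Ribosome biogenesis genes behaved unlike the ribosomal proteins. Of 30, 16 were higher and none lower in brain, and 7 were lower and none higher in S2 cells, with 5 opposing and none agreeing. The medians were 0.46 and -0.06, and 18 were called in the difference, all upward. The brain count was 10 without Atx2 RNAi replicate 1, and the S2 count was 3 with upper-quartile factors, 4 with DESeq2, 4 without mock replicate 1, 3 without mock replicate 2 and 4 without labelled replicate 1 or 2. The gene mbm (mushroom body miniature), a nucleolar protein, had 11, 10.4 and 9.63 CPM in Atx2 RNAi brains, against 2.99, 3.58 and 3.99 CPM in control brains, and 56.2, 53.9 and 55.2 CPM in labelled S2 libraries, against 56.9, 59.0 and 54.9 CPM in mock libraries, which overlapped. RpI1, the largest subunit of RNA polymerase I, had 28.4, 31.9 and 31 CPM in Atx2 RNAi brains, against 21.7, 24.3 and 22.1 CPM in control brains, and 125, 126 and 122 CPM in labelled S2 libraries, against 144, 145 and 144 CPM in mock libraries. The brain call of RpI1 was lost without control replicate 3 or Atx2 RNAi replicate 2 or 3. Nopp140 rose by 0.54 in brain, a call lost without Atx2 RNAi replicate 2, and fell by 0.17 in S2 cells. Nop56 rose by 0.57 in brain and fell by 0.13 in S2 cells, where the call was lost without mock replicate 1 or 2 or labelled replicate 2.

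Of 33 spliceosome genes, 14 were higher and 1 lower in brain, and 3 were higher and 9 lower in S2 cells, with 1 agreeing and 3 opposing. The brain count was 8 with TMM over all 12 libraries and 7 without any 1 of the Atx2 RNAi libraries, and the S2 count of 9 was 5 without mock replicate 2. U2af38, the small subunit of the factor that recognizes 3′ splice sites, had 26.0, 30.4 and 29.4 CPM in Atx2 RNAi brains, against 17.3, 20.1 and 16.1 CPM in control brains, and 119, 119 and 116 CPM in labelled S2 libraries, against 138, 132 and 132 CPM in mock libraries. Its difference was 0.80 (SE 0.119, adjusted p = 0.00029). SC35, a splicing factor of the SR family, had a difference of 0.63, and its brain call was lost in 5 of 6 fits.

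Genes of vesicle acidification and release were lower in brain, with few calls in S2 cells. Of 18 vacuolar ATPase subunit genes, 13 were lower and none higher in brain, and 2 were higher and 3 lower in S2 cells. The medians were -0.46 and -0.01, and 13 were called in the difference, all downward, and both counts of 13 were 8 with library size alone. Vha55, a subunit of the catalytic head, had 709, 697 and 764 CPM in Atx2 RNAi brains, against 1237, 1281 and 1313 CPM in control brains, and 704, 736 and 708 CPM in labelled S2 libraries, against 745, 735 and 742 CPM in mock libraries. It fell by 0.82 in brain, with a difference of -0.83 (SE 0.105, adjusted p = 9.8e-05). VhaSFD fell in both, by 0.65 in brain and by 0.34 in S2 cells, while Vha14-1 fell by 0.51 in brain and rose by 0.15 in S2 cells.

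Of 15 synaptic vesicle genes with enough counts in S2 cells, 12 were lower in brain, 1 was lower in S2 cells and 11 were called in the difference, all downward, with medians of -0.78 and -0.04. The gene cpx (complexin), a clamp of vesicle fusion, had 2445, 2841 and 2954 CPM in Atx2 RNAi brains, against 6175, 5438 and 6499 CPM in control brains, while its S2 levels overlapped at 13.9 to 15.6 CPM in labelled and 13.9 to 17.2 CPM in mock libraries. Rop, the fly Munc18 protein, was lower in both (-0.77 and -0.14), and its S2 call was lost without mock replicate 3 or labelled replicate 1. Summed neuron markers were lower in Atx2 RNAi brains, as given above, and their part in these results was not tested.

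Glycolysis genes rose in S2 cells. Of 19, 11 were higher and none lower in S2 cells, and 3 were higher and 1 lower in brain, where the count of lower genes was 9 without control replicate 1. Of these genes, 3 were called in the difference upward and 5 downward. The downward count was 8 with TMM over all 12 libraries, 11 with DESeq2 and 2 with library size alone. It was 13 without control replicate 1, 3 without mock replicate 1 and 2 without mock replicate 2. Pfk (phosphofructokinase) had 245, 264 and 306 CPM in Atx2 RNAi brains, against 283, 380 and 404 CPM in control brains, which overlapped. In S2 cells Pfk had 105, 105 and 98.5 CPM in labelled libraries, against 69.7, 71.6 and 77.7 CPM in mock libraries, a change of 0.49 (adjusted p = 1.5e-06). Its difference was -0.94 (SE 0.169, adjusted p = 0.00098). Lactate dehydrogenase, listed as ImpL3, and the gluconeogenic enzyme gene fbp were higher in both systems. The gene fbp had 49.0, 46.3 and 41.3 CPM in Atx2 RNAi brains, against 11.7, 4.25 and 6.25 CPM in control brains, and 22.7, 21.8 and 23.9 CPM in labelled S2 libraries, against 16.2, 17.4 and 17.6 CPM in mock libraries.

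Genes of endoplasmic reticulum folding and stress were higher in brain more often than in S2 cells. Of 18, 12 were higher and 2 lower in brain, and 5 were higher in S2 cells, all 5 also higher in brain. In the difference 11 were called upward and 2 downward, against 21.1% and 16.6% of all genes. The S2 count was 1 without mock replicate 1, 2 without mock replicate 2 and 3 without labelled replicate 1. Gp93, the chaperone of the Hsp90 family in this compartment, had 152, 152 and 160 CPM in Atx2 RNAi brains, against 47.4, 70.1 and 77.0 CPM in control brains, and 804, 836 and 860 CPM in labelled S2 libraries, against 731, 748 and 761 CPM in mock libraries. Pdi (protein disulfide isomerase) changed by 1.15 in brain and by 0.12 in S2 cells, and the S2 call was lost in 4 of 6 fits.

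Of 18 heat shock and chaperone genes, 6 were higher and 2 lower in brain and 5 were higher and 3 lower in S2 cells, with 4 higher in both. Of all genes, 23.8% were higher and 14.7% lower in brain, and 14.7% higher and 15.1% lower in S2 cells. In the difference 3 were called upward and 2 downward, below the 21.1% and 16.6% of all genes. The genes named next are single members and do not stand for the list. The brain count of 6 was 10 with library size alone, and the S2 count of 5 was 3 without mock replicate 1 or labelled replicate 1 or 3 and with the filter at 10 CPM. Hsp70Bb, 1 of several nearly identical Hsp70 copies between which reads can be split, had 132, 120 and 138 CPM in Atx2 RNAi brains, against 0.697, 0.821 and 0.625 CPM in control brains. In S2 cells Hsp70Bb had 7.20, 4.67 and 5.65 CPM in labelled libraries, against 4.27, 3.56 and 3.82 CPM in mock libraries. Its log2 fold change of 7.49 in brain was the largest of all 7019 genes, its S2 change was 0.59, and its difference was 6.84 (SE 0.249, adjusted p = 2.6e-09). Without labelled S2 replicate 1 its S2 change was 0.41 and was not called (adjusted p = 0.11). Hsp68 changed by 2.19 in brain and by 0.21 in S2 cells, where leaving out the same library gave 0.15 (adjusted p = 0.081). The small heat shock genes Hsp23 and Hsp27 were higher in both, by 0.65 and 1.0 in brain and by 0.64 and 0.61 in S2 cells, and their S2 calls were each lost in 3 of 6 fits.

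Of 38 detoxification and oxidative stress genes, 17 were higher and 1 lower in brain and 14 were higher and 2 lower in S2 cells, with 8 higher in both. In the difference 17 were called upward and 1 downward, and 10 upward with the filter at 10 CPM, which tests fewer genes. GstO3, a glutathione S-transferase, had 9.42, 9.12 and 6.49 CPM in Atx2 RNAi brains, against 3.98, 3.43 and 3.52 CPM in control brains, and 136, 141 and 155 CPM in labelled S2 libraries, against 97.2, 108 and 109 CPM in mock libraries. GstE6 rose by 1.30 in brain and by 0.35 in S2 cells. The peroxiredoxin gene Jafrac1 rose by 1.04 in brain and was not called in S2 cells, where it had 513 to 561 CPM in labelled and 522 to 546 CPM in mock S2 libraries. The median exon length of this list was 1016 nt.

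Hemocyte genes, which S2 cells also express, had 4 members higher in both systems. Of 10 hemocyte markers, 5 were higher and 1 lower in brain and 6 were higher and 1 lower in S2 cells, with 1 lower in both. Called or not, 4 of the 10 had a negative change in brain and 4 in S2 cells. The count lower in brain was 3 without control replicate 1. The genes named next are among those that rose and do not stand for the list. Hml (hemolectin) had 283, 438 and 378 CPM in Atx2 RNAi brains, against 52.3, 32.8 and 44.9 CPM in control brains. In S2 cells Hml had 161, 152 and 134 CPM in labelled libraries, against 109, 124 and 119 CPM in mock libraries. It rose by 3.08 in brain (adjusted p = 0.00014) and by 0.35 in S2 cells (adjusted p = 0.0009). Sr-CI, a scavenger receptor, had 45.1, 47.1 and 33.4 CPM in Atx2 RNAi brains, against 6.27, 5.52 and 4.92 CPM in control brains, and 142, 144 and 147 CPM in labelled S2 libraries, against 96.1, 95.2 and 98.1 CPM in mock libraries. The summed hemocyte markers overlapped between brain groups, at 1980 to 2500 CPM in Atx2 RNAi brains and 962 to 2120 CPM in control brains, and their part in these results was not tested.

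Matrix genes of the same cells were mixed. Of 21 genes of the basement membrane and hemocyte matrix, a list that includes several of these markers, 4 were higher in both, 1 was lower in both and 5 opposed. LanA, the alpha chain of laminin, had 112, 185 and 146 CPM in Atx2 RNAi brains, against 45.2, 62.3 and 82.4 CPM in control brains, and 2976, 3133 and 2492 CPM in labelled S2 libraries, against 3764, 3785 and 3892 CPM in mock libraries. It rose by 1.22 in brain and fell by 0.41 in S2 cells. Glt (glutactin) opposed in the same sense, with a difference of 2.65 (adjusted p = 7.3e-07). The engulfment receptor gene drpr, which shares reads with Oseg4 on its strand, opposed the other way, with a change of -0.37 in brain, a call lost without Atx2 RNAi replicate 3, and of 0.41 in S2 cells. Ppn (papilin) rose by 2.68 in brain and by 0.18 in S2 cells, where the call was lost without mock replicate 3.

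Partners of Ataxin-2 and factors of translational control were mostly long genes (median exon length 5363 nt). In the longest group of genes, 613 of 1733 were lower in brain and 30% were lower in S2 cells. Of 28, 7 were lower and 3 higher in brain and 12 were lower and 2 higher in S2 cells, with 4 lower in both, 1 opposing and none higher in both. The 2 higher in S2 cells include Atx2 itself, which is on this list and rose there by 1.88, with the limit given above. With library size alone the 7 lower in brain were 3, and the count was 12 with DESeq2, 3 without Atx2 RNAi replicate 1 or 3 and 4 without Atx2 RNAi replicate 2 or control replicate 3. The opposing gene was rin (rasputin), the fly G3BP of stress granules. It had 398, 426 and 419 CPM in Atx2 RNAi brains, against 326, 325 and 345 CPM in control brains, and 701, 765 and 700 CPM in labelled S2 libraries, against 915, 916 and 934 CPM in mock libraries. No libraries overlapped, the S2 change was -0.35 (SE 0.040, adjusted p = 8.9e-06) and the difference was 0.62 (SE 0.105, adjusted p = 0.00069), while its brain change of 0.32 was called and that call was lost in 5 of 6 fits.

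The gene pAbp, for poly(A)-binding protein, had 2872, 2530 and 2829 CPM in Atx2 RNAi brains, against 1866, 1950 and 1696 CPM in control brains, and overlapped in S2 cells at 2468 to 2521 CPM in labelled and 2426 to 2554 CPM in mock libraries. The RNA-binding protein genes shep (alan shepard), msi (musashi) and TBPH, the fly TDP-43, were lower in both, with changes of -0.33, -0.64 and -0.36 in brain and of -0.20, -0.18 and -0.15 in S2 cells. Their brain calls were lost in 5, 1 (without Atx2 RNAi replicate 1) and 5 of 6 fits, and the S2 call of TBPH in 3.

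Growth signalling was led by InR, the insulin receptor, which was lower in both. It had 67.9, 92.1 and 85.6 CPM in Atx2 RNAi brains, against 296, 204 and 140 CPM in control brains, and 232, 236 and 195 CPM in labelled S2 libraries, against 269, 255 and 263 CPM in mock libraries. Its change was -1.38 in brain (adjusted p = 0.0076) and -0.25 in S2 cells (adjusted p = 0.0054). Of 22 genes in that list, 8 were lower and 1 higher in brain and 6 were lower and 3 higher in S2 cells, with 3 lower in both and 1 higher in both. All genes were called lower at 14.7% in brain and 15.1% in S2 cells. The median exon length of the list was 4760 nt, within the longest group of genes. In that group 613 of 1733 genes were lower in brain and 30% were lower in S2 cells, so the counts of this list were near those of other long genes. The brain count of 8 was 3 with library size alone, 4 without any 1 of the Atx2 RNAi libraries and 5 without control replicate 3. Among cytoskeleton genes, stai (stathmin), which binds tubulin, was lower in both (-0.49 and -0.36), and tsr (twinstar), the fly cofilin, was higher in both (0.66 and 0.20).

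The mRNAs marked by Ataxin-2 itself in brain formed the last group. TRIBE fuses an RNA-binding protein to the catalytic domain of the editing enzyme ADAR, so that mRNAs it meets are edited. Of 256 genes with an edited position in both Atx2 WT TRIBE libraries, 247 matched a gene of the count tables and 168 had enough counts in both systems. Of these 168, 54 were lower and 14 higher in brain, where 14.7% and 23.8% of all genes were called lower and higher, and 29 were lower and 11 higher in S2 cells, where 15.1% and 14.7% of all genes were. In the difference 60 were called with the lower response in brain and 13 with the higher one, against 16.6% and 21.1% of all genes. The medians were -0.17 in brain and -0.01 in S2 cells, against 0.105 and 0.003 for all genes. With library size alone the brain counts were 27 lower and 36 higher and the difference counts 34 and 39, with a brain median of 0.036 against 0.313 for all genes. The brain count of 14 was 9 without control replicate 3 or Atx2 RNAi replicate 2 or 3, and the S2 count of 11 was 17 with upper-quartile factors, 7 with DESeq2 and 7 without mock replicate 3. The targets were longer than other genes, with a median exon length of 3372 nt against 2198 nt.

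Among the 4 classes of genes called in both systems, targets made up 5 of the 390 genes higher in both (1.28%), 10 of the 219 lower in both (4.57%), 1 of the 163 higher in brain and lower in S2 cells (0.613%) and 2 of the 72 lower in brain and higher in S2 cells (2.78%), against 2.39% of all genes. The target CG8613 had 146, 134 and 142 CPM in Atx2 RNAi brains, against 293, 297 and 294 CPM in control brains, and 43.9, 46.1 and 45.7 CPM in labelled S2 libraries, against 42.4, 43.0 and 44.7 CPM in mock libraries, which overlapped. Its difference was -1.18 (SE 0.088, adjusted p = 1.2e-06). DOR, an autophagy and nuclear receptor cofactor, opposed. It had 273, 242 and 261 CPM in Atx2 RNAi brains, against 319, 420 and 406 CPM in control brains, and 39.6, 41.1 and 40.7 CPM in labelled S2 libraries, against 32.9, 30.8 and 32.3 CPM in mock libraries. No libraries overlapped, and the difference was -0.95 (adjusted p = 0.00019), while its brain change of -0.56 became -0.35 with library size alone and was not called (adjusted p = 0.071).

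The kinase gene hipk (homeodomain interacting protein kinase) was lower in both. It had 315, 441 and 421 CPM in Atx2 RNAi brains, against 1029, 552 and 650 CPM in control brains, and 1462, 1574 and 1247 CPM in labelled S2 libraries, against 1890, 1822 and 1898 CPM in mock libraries. Its changes were -0.92 in brain, a call lost without Atx2 RNAi replicate 1, and -0.39 in S2 cells. CG11638, which shares reads with CG32814 and lies antisense to su(w[a]), changed by -0.42 in brain and by -0.48 in S2 cells, but its brain call was lost in 5 of 6 fits and its S2 call without mock replicate 3. CG42675, which lies antisense to Hpr1, was higher in both, with 9.23, 9.98 and 7.56 CPM in Atx2 RNAi brains, against 3.09, 4.03 and 2.03 CPM in control brains, and 9.74, 9.83 and 10.8 CPM in labelled S2 libraries, against 6.12, 6.74 and 6.26 CPM in mock libraries. Its changes were 1.54 in brain and 0.66 in S2 cells, and the call of its difference of 0.82 was lost in 5 of 12 fits without 1 library.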

How the data were processed

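RNA-seq was analysed in 12 libraries, 3 in each of 4 groups. Per the study's methods, the authors mapped reads to dm6 with STAR and counted them per gene with HTSeq on the reverse strand setting, and deposited raw counts, 1 table per library. The study names a kit that marks strand and one that does not, without saying which made these libraries, so a gene and its antisense partner may not be separable, and partners on the same strand share reads. Closing lines that name no gene (no feature, 8.23% to 22% of the reads listed) were left out of library sizes. The authors also deposited edit lists whose values are percent of reads edited, and these were used only for the names of genes with an edited position in both Atx2 WT libraries. Other TRIBE libraries were not analysed here.

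Counts were fitted with edgeR 4.0.16 in R 4.3.3 by the quasi-likelihood test with robust settings. Each response came from a fit of its own 6 libraries, over genes that passed filterByExpr (minimum count 10, so that a gene can pass through the group where it is high). The difference came from a joint fit of 12 libraries over genes that passed in both systems, with TMM factors computed within each system, so printed responses and differences need not subtract exactly. The joint fit pooled the spread of each gene over both systems, although the coefficient of variation was 0.148 in brain and 0.0345 in S2 cells. The SE of a difference therefore need not combine the SEs of the 2 responses. Subtraction of the single-system fits keeps the 2 spreads apart. CPM is counts per 1000000 of the TMM-scaled library size within a system, and list levels are means of log2(CPM + 1). Called means an adjusted p (Benjamini-Hochberg, all genes in the fit) under 0.05. Depth of 11169973 to 16108727 counts per library limits low genes most. Replicates were not duplicate deposits, since chi-square per degree of freedom between them was 24 to 64.4 in brain and 1.28 to 6.1 in S2 cells.

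Annotation was Ensembl release 115, which matched 98.8% of genes tested in both (6936 of 7019). Lists were described by counts and medians, with no set test. Named genes were Atx2 and w, the 8 genes of each class called in both systems with the largest smaller change, the 6 largest differences on each side among genes with at least 10 CPM in a group of each system, and up to 4 members of each described list called in the difference (smallest p) and up to 4 called in both. Members and lists were chosen with earlier results of these data known. Alternatives were other scalings, DESeq2 1.42.0, voom of limma 3.58.1, subtraction of the single-system fits, other filters, a replicate block and fits without 1 library. The fitting code was tested on simulated data. Tables and figures were made with Python 3.11.15, numpy 2.4.6, pandas 2.3.3 and matplotlib 3.10.9. No per-sample column was left unmapped.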

Additional observations from a re-analysis of the deposited data

Results flagged for a closer look

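Each result here was picked out because the response of Atx2 RNAi over its own control differed between brain and S2 cells by the test of the difference itself (edgeR's quasi-likelihood test, adjusted p under 0.05), and each value is the log2 difference, brain minus S2. Groups of 3 libraries were not searched for single libraries far from the rest. Over all genes, 1479 differences were positive and 1166 negative.

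Atx2 differed by -2.27. Among genes higher in both systems, eater differed by 1.27, CG34010 by 1.34 (a call lost in 9 of 12 fits without 1 library) and lectin-28C by 1.56 (lost in 5 of 12). Among genes higher in brain and lower in S2 cells, the differences were 2.87 for CR45479, 1.502 for CG5987, 3.36 for CR45171, 2.76 for Cyp4d2, 1.71 for ste24b, 1.22 for CG16947, 1.95 for CG3835 and 1.80 for CG8468. Among genes lower in brain and higher in S2 cells they were -1.61 for Con, -1.54 for CG10089, -2.21 for CR43951, -1.49 for Nos, -1.94 for Pka-C3, -1.43 for CG8745, -1.38 for ed and -1.26 for nAChRalpha4.

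Among genes with at least 10 CPM in a group of each system, the largest negative differences besides that of Atx2 were -4.10 for NimC4, -3.03 for Ama, -2.73 for CG5397, -2.50 for CG44085 and -2.12 for CG34398, and the largest positive ones were 5.55 for CG33926, 5.11 for Tequila, 4.52 for CG33307, 3.94 for smp-30, 3.81 for Cyp4e2 and 3.46 for dob.

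The genes of translation named in the report had differences of 1.87 for sta, 1.02 for RpS12, 1.09 for Ef1alpha48D, 1.07 for Ef1gamma, 0.52 for pAbp and 0.41 for mRpL14, whose call was lost in 3 of 12 fits. Their lists also held members called downward, 4 initiation factor genes (4EHP by -0.86) and 2 mitochondrial ribosomal protein genes (mRpS9 by -0.40). Of ribosome biogenesis and splicing genes, the differences were 1.53 for mbm, 0.58 for RpI1, 0.65 for Nopp140, 0.64 for Nop56, 0.80 for U2af38 and 0.63 for SC35. DNA replication genes differed by 1.17 for Mcm3, 0.77 for Top2, 0.85 for geminin and -0.47 for cdc2c, the last call being lost in 9 of 12 fits.

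Of genes of energy metabolism and vesicles, the differences were -0.51 for ATPsyn-d, -0.62 for ND42, -0.53 for blw, -0.94 for Pfk, -0.83 for Vha55, -0.36 for VhaSFD, -0.72 for Vha14-1, -1.10 for cpx and -0.69 for Rop, while fbp differed by 2.19 and ImpL3 by 0.89. Folding, degradation and detoxification genes differed by 0.57 for Prosalpha4, 0.97 for Pdi, 1.03 for Gp93, 6.84 for Hsp70Bb, 1.93 for Hsp68, 0.62 for rin, 0.69 for GstO3, 0.90 for GstE6 and 0.99 for Jafrac1.

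Hemocyte and matrix genes differed by 2.67 for Hml, 2.28 for Sr-CI, 2.45 for Ppn, 1.57 for LanA, 2.65 for Glt and -0.83 for drpr. InR differed by -1.19 and tsr by 0.40. Of the TRIBE targets, CG8613 differed by -1.18, DOR by -0.95 and CG42675 by 0.82.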

How the results depend on the processing

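Of the main counts under other settings, 178 stayed within 1.5 times the reported value and 24 moved further. Counts for 1 system are given here over all genes tested in that system, where the reported fits called 2143 higher and 1713 lower of 9197 in brain and 1094 higher and 1103 lower of 7567 in S2 cells. With library size alone, 925 of the 9197 genes were lower in brain (474 of the 7019 tested in both, against 1030), the difference had 2608 positive and 460 negative calls, 598 genes were higher in both, 86 lower in both, 254 higher in brain and lower in S2 cells and 39 the reverse. Upper-quartile factors gave 129 genes lower in both. DESeq2 gave 685 of the 7567 genes higher in S2 cells, 259 higher in both and 100 higher in brain and lower in S2 cells. The filter at 10 CPM gave 45 genes lower in brain and higher in S2 cells, in part because it tests fewer genes. For the other settings the cause was not tested. Without 1 library, 1389 to 2193 genes of 9197 were higher and 1151 to 1822 lower in brain, 780 to 1181 higher and 768 to 1203 lower of 7567 in S2 cells, and, of the 7019 genes tested in both, 263 to 434 higher in both, 133 to 273 lower in both, 108 to 171 higher in brain and lower in S2 cells and 41 to 100 the reverse. The lowest brain counts came without Atx2 RNAi replicate 1 (higher) or 3 (lower), and the highest of 1822, 2193 and 100 without control replicate 1.

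The median brain response of all genes was 0.105 with TMM factors, 0.004 with TMM over all 12 libraries, 0.313 with library size alone and 0.173 with upper-quartile factors, so list medians are read against it. The brain medians of several lists turned positive with library size alone, each still below the median of all genes. They included 0.141 for oxidative phosphorylation genes, 0.036 for TRIBE targets, 0.033 for Atx2 partners, 0.066 for glycolysis and 0.005 for growth signalling. The mRNA decay, autophagy, cytoskeleton and circadian clock lists turned likewise. Some median differences turned too, such as that of TRIBE targets, from -0.207 to 0.038, against 0.284 for all genes. Of 38 list counts of at least 10, library size alone moved 10 by over 1.5 times. For single genes and values, 6672 stayed, 297 calls were lost, 2 were gained (Atx2 in brain), 295 values moved and none reversed.

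Replicate numbers did not pair the samples, since same-numbered libraries of the 2 groups of a system had correlated deviations of -0.212 to 0.0709 and not every sample correlated best with its own number. A replicate block gave 124 genes lower in both and 46 lower in brain and higher in S2 cells, and moved 6 of the 38 list counts by over 1.5 times. The correlation of the responses was 0.121 to 0.262 over settings (Spearman), lowest without labelled S2 replicate 3, and within length groups it was -0.0529 to 0.0584. Depth limits genes near 1 CPM. With DESeq2 the S2 calls of Con, Nos, nAChRalpha4, CR43951, tutl, pgant2, msta and TBPH were lost, at adjusted p of 0.11, 0.089, 0.15, 0.17, 0.068, 0.13, 0.1 and 0.07, and limma voom ended the difference calls of GstO3 and mRpL14, at 0.1 and 0.063.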

Other observations

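Other gene groups had few genes called in both systems. Their counts stand beside 23.8% of all genes called higher and 14.7% lower in brain, and 14.7% higher and 15.1% lower in S2 cells. Of 20 genes of amino acid, folate and one-carbon metabolism, 11 were higher and 2 lower in brain, 3 were higher and 3 lower in S2 cells, and 1 was higher in both. The brain count of 11 was 7 with TMM over all 12 libraries and 6 without Atx2 RNAi replicate 1. Of 18 cytosolic aminoacyl-tRNA synthetase genes, which charge tRNAs for translation, 6 were higher in brain and 2 in S2 cells, with none in both. The brain count was 13 with library size alone and the S2 count 0 with DESeq2. Of 31 genes of mRNA decay and P-bodies, 8 were higher and 6 lower in brain, 2 were higher and 5 lower in S2 cells, 1 was higher in both, 1 lower in both and 1 lower in brain and higher in S2 cells. With library size alone the brain count of 6 was 0, and without mock replicate 1 the S2 count of 5 was 1. Of 29 autophagy and lysosome genes, 6 were higher and 9 lower in brain and 5 were higher and 5 lower in S2 cells, with 2 higher in both and 2 opposing. The brain counts were 3 higher without Atx2 RNAi replicate 3 and 3 lower with library size alone, and the S2 counts were 2 higher without mock replicate 1 and 1 lower with upper-quartile factors.

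Of 13 innate immune effector genes with enough counts in both systems, 5 were higher in brain, 2 were lower in S2 cells and 1 opposed. A further 25 were tested in brain only, where 9 were higher and 1 lower. Of all 9197 genes tested in brain, whether or not they were tested in S2 cells, 23.3% were higher and 18.6% lower. Of 13 genes on a mixed list of RNA interference and antiviral defence, 5 were higher and 3 lower in brain and 2 were higher in S2 cells, both also higher in brain. These 2 were CG33926 and pst, with S2 changes of 0.30 and 0.32, and the brain call of pst was lost under another scaling. With library size alone 8 were higher in brain. Of 11 circadian clock genes tested in both, 3 were lower in brain and 1 was lower in S2 cells, with none called in both.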
